A study of Mus musculus with 6 samples.

Results

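Transcripts of 10 secreted growth factors of the skin were followed in dorsal mouse skin treated with vehicle or rebamipide. The 10 genes, Vegfa, Igf1, Hgf, Pdgfa, Fgf5, Fgf7, Fgf10, Fgf18, Tgfb1 and Tgfb2, were chosen by name as factors known to act on the hair follicle, and they are 10 of the 21959 genes in the deposited table. Each of the 10 was measured and entered the test. The 7-week-old male C57BL/6 mice of both groups had their back hair shaved in telogen, the resting stage of the hair cycle. Vehicle (30% dipropylene glycol and 70% distilled water) or 3% rebamipide, a drug known for protecting the gastric mucosa, was then put on the shaved skin daily for 7 days. Full-thickness dorsal skin of 3 mice per group was sequenced from poly-A RNA, as 1 library per mouse. The study asked by which route topical rebamipide acts on hair regrowth, and the comparison of the groups here addresses the growth factor signals.

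These factors carry signals between the dermis, its fat layer and vessels, and the epithelium of the follicle. Ligands of dermal cells such as Fgf7, Fgf10, Hgf and Igf1 bind receptor tyrosine kinases on follicle epithelium and are known to favour the growing stage, called anagen. Vegfa acts on endothelial cells and is known for the vessels that surround a growing follicle, and Pdgfa is known as a signal from fat precursors and epithelium to the dermal papilla. Fgf5, Tgfb1 and Tgfb2 are known for their part in regression or, for Tgfb2, in stem cell activation, and Fgf18 is known for holding follicles at rest.

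Before the values, the contents of the libraries have to be given. Basal keratinocyte markers had a summed level of 2454 to 3979 normalized CPM (counts scaled to a common library size) in the vehicle libraries and of 1141, 707.1 and 131.1 CPM in rebamipide libraries 1, 2 and 3. Krt5, the basal keratin of the epidermis, had 50427 to 77535 counts in the vehicle libraries and 4 counts in rebamipide library 3, where Krt14 and Krt15 were at 0. That library therefore goes against its description as full-thickness skin. Structural genes of the growing hair follicle summed to 25230 and 13940 CPM in vehicle libraries 1 and 2, to 276.6 CPM in vehicle library 3 and to 1066, 0.8184 and 0.229 CPM in the rebamipide libraries, although all mice were shaved in telogen. Brown adipocyte markers summed to 203.1 to 354.3 CPM in vehicle and 4836 to 12680 CPM in rebamipide, and Ucp1, the uncoupling protein of brown fat, was at 0 counts in every vehicle library and at 81048 to 220449 counts in the rebamipide libraries. Elovl3, another marker of that list, went the other way, at 8788, 6332 and 11150 counts in vehicle and 2500, 2133 and 873 in rebamipide. It had the highest counts of the list in each vehicle library. Endothelial markers summed to 221.4 to 527.2 CPM in vehicle and 952.6 to 1320 CPM in rebamipide. Fibroblast markers overlapped between the groups, at 12280 to 18670 CPM in vehicle and 15750, 3671 and 1940 CPM in rebamipide. Fast skeletal muscle markers ranged from 6124 to 31470 CPM in vehicle and were at 40340, 8469 and 310 CPM in the rebamipide libraries, and Myh7, a myosin of slow muscle, had 2, 6 and 4 counts in vehicle and 2120, 947 and 37 counts in rebamipide. Transcripts encoded in mitochondria made up 2.59% to 5.36% of vehicle counts and 13.28% to 21.96% of rebamipide counts, so that this share, too, differed between the groups without overlap beside each result given here. Whether the same tissue layers and body site were sampled in both groups was not tested, and a difference in sampled tissue and an effect of treatment cannot be told apart here. In such bulk samples, fewer cells of a type and less RNA per cell cannot be told apart. The libraries held 38676018 to 39915276 counts in vehicle and 32709801 to 34706852 in rebamipide, and where a gene is given at 0 the depth leaves room for 3 counts, which is 0.0752 to 0.0917 CPM before TMM normalization (counting error only).

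Of the 10 factors, Vegfa rose and Fgf7 fell in rebamipide-treated skin, and the other 8 did not pass the test (edgeR's quasi-likelihood test, adjusted p-value under 0.05 over all 14875 genes tested). The background of this count was 14.1% of all genes tested called higher and 6.51% called lower, so 1 of 10 in each direction is close to the share of genes at large. The study's own thresholds (p-value under 0.05 before adjustment, log2 fold change beyond 1 in size) were applied here to edgeR's values. By them 1 factor was higher and 2 were lower, Fgf5 joining Fgf7, against 14.3% and 14.5% of all genes. With DESeq2, the tool the study names, 4 factors passed these thresholds. The groups did not overlap for 1 factor that was higher and 2 that were lower in every rebamipide library, against 24.5% and 24.0% of all genes. The fitted log2 fold change was above 0 for 1 factor and below 0 for 9, with a median of -0.85, where the median of all genes tested was -0.17. Under total count scaling the median was -1.46 for the factors and -0.78 for all genes.

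**Figure D1:**
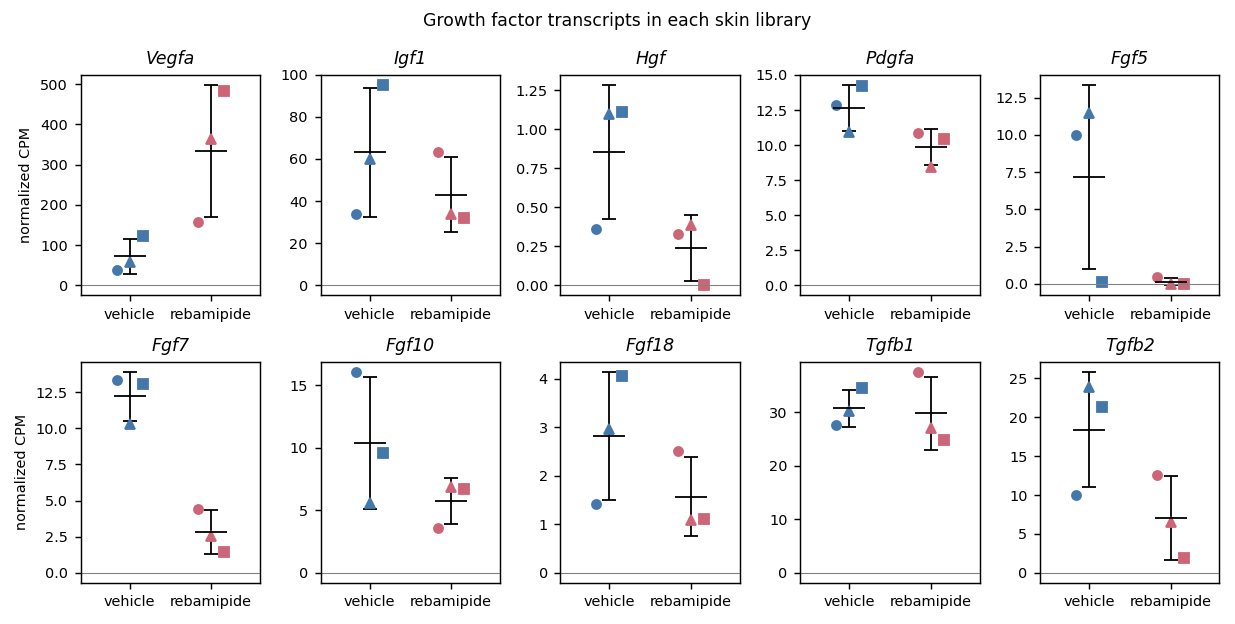
Normalized CPM of the 10 growth factors in each library, with the groups on the horizontal axis and a separate linear vertical axis per gene. Circles, triangles and squares are libraries 1, 2 and 3 of a group, black dashes are means and bars are SD (n = 3 per group). Vegfa is higher and Fgf7 lower in every rebamipide library, while Fgf5 is at 9.976 and 11.49 CPM in vehicle libraries 1 and 2 and near 0 elsewhere.

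The promoters of the factor that rose, of the factor that fell and of Tgfb1, the factor with a fold change nearest 0, are shown so that their base composition can be compared. Each sequence is the 250 bases upstream of a RefSeq transcription start in GRCm38.p6, 5′ to 3′ on the gene's strand, with the GC box GGGCGG, searched on both strands, in capitals. The window of Vegfa is chr17:46032378-46032627 on the minus strand, that of Fgf7 is chr2:126034408-126034657 on the plus strand, and that of Tgfb1 is chr7:25686752-25687001 on the plus strand.
Vegfa: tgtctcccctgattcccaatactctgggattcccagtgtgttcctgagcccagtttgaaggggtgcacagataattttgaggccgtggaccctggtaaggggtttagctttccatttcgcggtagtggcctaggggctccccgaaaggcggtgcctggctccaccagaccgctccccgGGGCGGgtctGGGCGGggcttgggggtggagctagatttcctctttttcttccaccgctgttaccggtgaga
Fgf7: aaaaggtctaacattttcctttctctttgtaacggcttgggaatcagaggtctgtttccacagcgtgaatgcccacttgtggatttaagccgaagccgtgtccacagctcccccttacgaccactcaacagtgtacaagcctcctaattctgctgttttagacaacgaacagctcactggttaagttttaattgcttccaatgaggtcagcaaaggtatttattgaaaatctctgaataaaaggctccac
Tgfb1: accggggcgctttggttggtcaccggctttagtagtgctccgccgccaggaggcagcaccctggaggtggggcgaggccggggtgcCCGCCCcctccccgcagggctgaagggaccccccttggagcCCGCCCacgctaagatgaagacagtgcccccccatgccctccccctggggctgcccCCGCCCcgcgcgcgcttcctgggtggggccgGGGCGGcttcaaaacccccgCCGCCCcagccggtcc
The Vegfa window held 2 GC boxes, 72 and 62 bases upstream of the start, and had a GC content of 59.2%. The Fgf7 window held 0 and had a GC content of 43.6%, below the lower quartile of 45.2% over 32851 mouse promoter windows. The Tgfb1 window held 5 and had a GC content of 75.2%. The 10 factors had 13 windows in all, and a GC box was in 8 of them (those of Vegfa, Pdgfa, Fgf5, Fgf10, Fgf18 and Tgfb1), where 32.7% of all windows hold one. The TATAAA motif, on either strand and found in 12.4% of all windows, was in 1 of the 13 windows, that of Tgfb2. CCAAT, on either strand and found in 33.8% of all windows, was in 5 of the 13 windows, those of Vegfa, Fgf7, Igf1 and Tgfb2. ACGTG on either strand, the core of the hypoxia response element, was in 2 of the 13 windows, those of Vegfa at its second start and of Tgfb2, and in 16.6% of all windows. These matches describe the letters of the windows and not the binding of a factor.

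Among the growth-promoting factors, Vegfa (ENSMUSG00000023951, chromosome 17, 46327919 to 46343295 in the deposited table), the main vascular endothelial growth factor, was at 37.36, 57.83 and 121.6 CPM in vehicle libraries 1, 2 and 3 and at 157.5, 363.3 and 482.5 CPM in the rebamipide libraries. The groups did not overlap, and the lowest rebamipide library was 1.3 times the highest vehicle library. The mean rose from 72.2 ± 43.9 CPM to 334.4 ± 164 CPM (SD, n = 3 per group), a log2 fold change of 2.21 with a standard error of 0.59 and an adjusted p-value of 0.0468 (edgeR). Its 95% interval ran from 0.77 to 3.65. The spread inside the groups was wide, with 3.25-fold between the lowest and highest vehicle library and 3.06-fold between the lowest and highest rebamipide library.

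The Vegfa level moved with marker lists of fat and vessels. Adipocyte markers were at 1533, 2725 and 4576 CPM in vehicle libraries 1, 2 and 3 and at 10470, 15080 and 17990 CPM in the rebamipide libraries, which is the same order as that of Vegfa, and endothelial markers were at 221.4, 322 and 527.2 CPM and at 952.6, 1123 and 1320 CPM. Pericyte and smooth muscle markers, at 381.1, 367.9 and 502 CPM and at 576.1, 834.3 and 1013 CPM, were also higher in every rebamipide library, with 0 of 4 called. Brown adipocyte markers, at 207.7, 203.1 and 354.3 CPM and at 4836, 12680 and 10360 CPM, differed between the groups too but did not follow the order of Vegfa. Of the 8 markers in each of the adipocyte and endothelial lists 5 were called higher, where 14.1% of all genes tested were. In the rebamipide libraries Fabp4, a fatty acid binding protein, had the highest counts of the adipocyte list, while Cfd, Lep and Retn, secreted products of white fat, were not called (log2 fold changes 0.34, -0.53 and -0.23, adjusted p-values 0.697, 0.486 and 0.752, edgeR). Adipoq, also secreted by white fat, was called higher, with 9337, 14072 and 25408 counts in vehicle and 32675, 35095 and 46457 in rebamipide. The part of these cell types in the Vegfa result was not tested. Without rebamipide library 3, which lacked keratin transcripts, the log2 fold change of Vegfa was 1.86 with an adjusted p-value of 0.102 (edgeR). Its call was also lost without vehicle library 1 (0.107), vehicle library 2 (0.165) or rebamipide library 2 (0.143), the values in parentheses being edgeR's adjusted p-values, and narrowly with upper quartile scaling (0.0551), total counts alone (0.0643) or no filter (0.0536). DESeq2, the tool the study names, kept the call with each library left out, at adjusted p-values from 3.66e-05 to 0.0402.

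Fgf7 (ENSMUSG00000027208, chromosome 2, 125876578 to 125933105), the keratinocyte growth factor made by dermal fibroblasts and the dermal papilla, was at 13.34, 10.29 and 13.06 CPM in vehicle and at 4.445, 2.572 and 1.412 CPM in rebamipide. The vehicle libraries lay close together and the lowest was 2.32 times the highest rebamipide library. The mean fell from 12.2 ± 1.68 CPM to 2.81 ± 1.53 CPM (SD, n = 3 per group), a log2 fold change of -2.12 with a standard error of 0.46 and an adjusted p-value of 0.028 (edgeR). The 95% interval ran from -3.24 to -0.996. Fibroblast markers were at 15750 CPM in rebamipide library 1, inside the vehicle range, and Fgf7 was below the vehicle range there too. In rebamipide libraries 2 and 3 the fibroblast markers and Fgf7 were both low. Relative to the mean log2 level of the fibroblast markers in the same library, a measure chosen after the data were seen, Fgf7 was at -5.70, -6.55 and -6.65 in vehicle and at -7.67, -6.73 and -6.74 in rebamipide, so that the difference was -0.75 and rebamipide libraries 2 and 3 lay just under vehicle library 3. The marker mean itself was lower by 1.51 in rebamipide, which enters this difference for any gene. The dermal papilla list, at 17.08 to 69.63 CPM in vehicle and 28.18 to 33.72 CPM in rebamipide, overlapped between the groups, but of its 6 markers Rspo3 (288, 116 and 60 counts against 19, 8 and 2) and Crabp1 (445, 314 and 284 against 90, 30 and 0) were lower in every rebamipide library, library 1 included, and Alpl was higher. Of the 5 adipocyte progenitor markers, only Dpp4 was called lower (2202, 2807 and 2829 counts against 366, 160 and 58, adjusted p-value 0.0238, edgeR). Thy1 had 4104, 4256 and 5181 counts in vehicle and 2438, 717 and 221 counts in rebamipide. Pi16, Ly6a and Cd34 in rebamipide library 1 had counts, not scaled for library size, inside the vehicle range. In rebamipide libraries 2 and 3 the counts of Pi16 (799 and 400) and Cd34 (2349 and 1581) were below the vehicle range. Ly6a had 4418 and 4437 counts there. The part of these cells in the Fgf7 result was not tested. Without rebamipide library 3 the log2 fold change of Fgf7 was -1.79 (adjusted p-value 0.0498, edgeR), and the call was lost without vehicle library 1 (0.0728), vehicle library 2 (0.103), vehicle library 3 (0.0654) or rebamipide library 2 (0.121). Fgf7 overlaps Fam227b on the opposite strand, which had at most 1 count in any library.

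**Figure D2:**
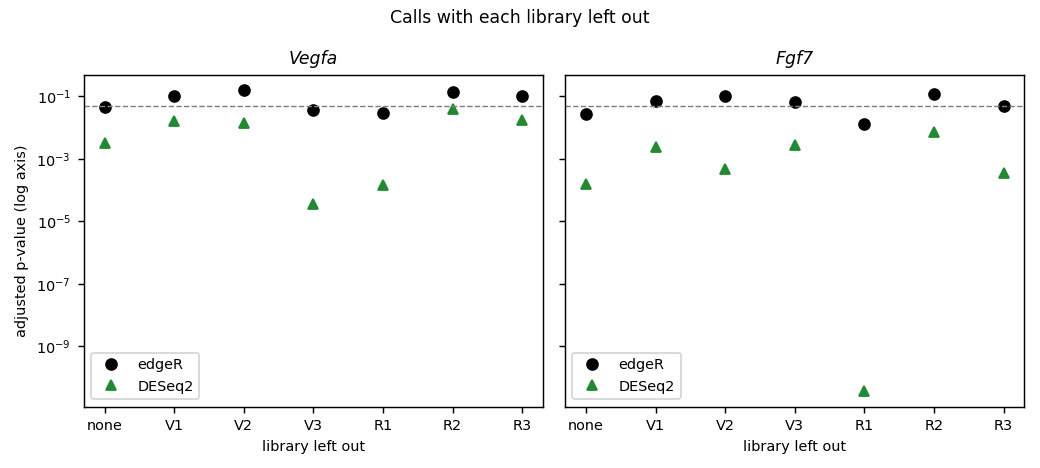
Adjusted p-values (log axis) of Vegfa and Fgf7 with no library or 1 library left out, by edgeR (circles) and DESeq2 (triangles). V marks vehicle and R rebamipide libraries, and the dashed line is 0.05. The edgeR values sit near the line and pass above it without vehicle library 1, vehicle library 2 or rebamipide library 2 for both genes, while all DESeq2 values lie below it.

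Fgf10 (ENSMUSG00000021732, chromosome 13, 118806327 to 118928651), the closest relative of Fgf7 among the factors and a ligand of the same epithelial receptor, was at 16.05, 5.604 and 9.558 CPM in vehicle and at 3.589, 6.859 and 6.717 CPM in rebamipide. Vehicle library 2 lay below rebamipide libraries 2 and 3, so the groups overlapped. Its log2 fold change was -0.86 with a 95% interval from -2.02 to 0.30 (adjusted p-value 0.223, edgeR). Fgf10 was called lower under total count scaling (0.0487) and by DESeq2 without vehicle library 2 (-1.17, 0.0455), and its log2 fold change was -0.45 in edgeR without vehicle library 1.

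Igf1 (ENSMUSG00000020053, chromosome 10, 87694127 to 87772904), the insulin-like growth factor of dermis and fat, was at 33.95, 59.98 and 95.24 CPM in vehicle and at 63.42, 33.79 and 31.9 CPM in rebamipide. Vehicle library 1 was as low as rebamipide libraries 2 and 3, and rebamipide library 1 lay inside the vehicle range. For Igf1 the log2 fold change was -0.55, with a 95% interval from -1.65 to 0.54 (adjusted p-value 0.388, edgeR). It ran from -0.94 without rebamipide library 1 to -0.11 without vehicle library 3, and Igf1 was called in neither case.

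Pdgfa (ENSMUSG00000025856, chromosome 5, 138961769 to 138983125), a chain of platelet-derived growth factor, was at 12.84, 10.92 and 14.22 CPM in vehicle and at 10.83, 8.418 and 10.42 CPM in rebamipide. It was lower in every rebamipide library, but rebamipide library 1 lay just under vehicle library 2. The fold change of Pdgfa was -0.36 on the log2 scale with a 95% interval from -0.94 to 0.23 (adjusted p-value 0.306, edgeR). Pdgfa was called lower with limma on log2(FPKM + 1) (0.0302) and log2(FPKM + 0.1) (0.0311) and with scaling by total counts alone (0.0405), under which the median log2 fold change of all genes was lower by 0.603 than with TMM scaling. The deposited FPKM is scaled by total counts as well.

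Hgf (ENSMUSG00000028864, chromosome 5, 16758493 to 16825150), the hepatocyte growth factor of the dermal papilla, rested on few reads. It had 18, 54 and 52 counts in the vehicle libraries and 10, 10 and 0 counts in the rebamipide libraries. Vehicle library 1 at 0.3606 CPM overlapped the rebamipide libraries at 0.3293, 0.3897 and 0 CPM. Its log2 fold change of -1.82 had a 95% interval from -4.37 to 0.73 that includes 0 (adjusted p-value 0.24, edgeR).

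**Figure D3:**
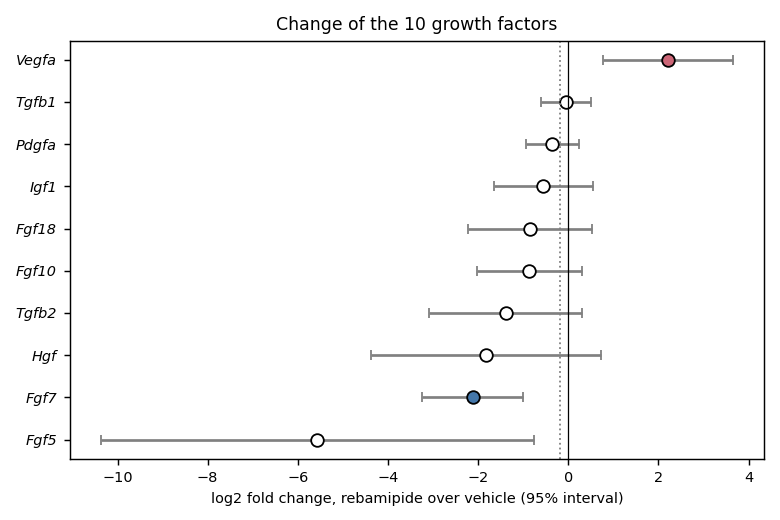
Log2 fold change of each growth factor, rebamipide over vehicle, with its 95% interval (edgeR, n = 3 per group). Filled points passed an adjusted p-value of 0.05, open points did not, and the dotted line is the median of all genes tested, -0.17. Vegfa at 2.21 and Fgf7 at -2.12 are filled, and Fgf5 has the widest interval, from -10.36 to -0.77.

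Among the factors of hair cycle timing, Fgf5 (ENSMUSG00000029337, chromosome 5, 98402043 to 98424889), a factor of the follicle epithelium whose loss gives long hair because anagen lasts longer, had 498, 566 and 6 counts in vehicle libraries 1, 2 and 3 and 13, 0 and 0 counts in the rebamipide libraries. Vehicle libraries 1 and 2 stood at 9.976 and 11.49 CPM, and vehicle library 3 at 0.1283 CPM was lower than rebamipide library 1 at 0.4281 CPM. The fitted log2 fold change of -5.57 (standard error 1.98) had an unadjusted p-value of 0.0294 and an adjusted p-value of 0.0908 (edgeR). The 2 libraries with Fgf5 are those in which the structural genes of the growing hair follicle summed to 25230 and 13940 CPM, and the part of follicle stage in the Fgf5 values was not tested. Since these libraries hold nearly all Fgf5 counts of the vehicle group, leaving both out removes the difference by construction. DESeq2 called Fgf5 lower without rebamipide library 1 (log2 fold change -9.96, adjusted p-value 3.48e-05) and without rebamipide library 2 (-5.07, 0.0386), while edgeR gave -11.15 (0.0897) and -5.01 (0.233) there.

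**Figure D4:**
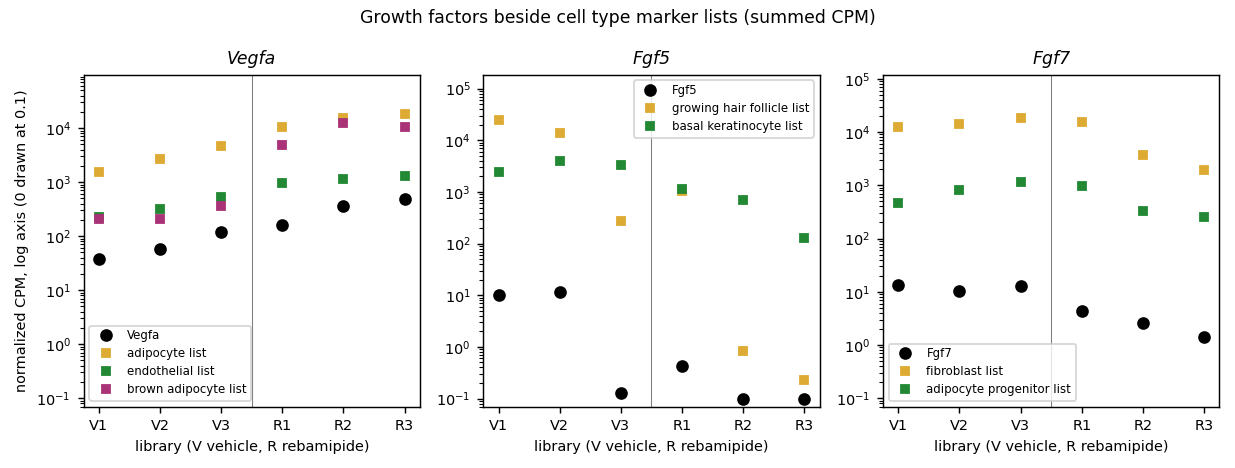
Normalized CPM of Vegfa, Fgf5 and Fgf7 (black circles) and the summed CPM of cell type marker lists (squares) in each library, on a log axis with values of 0 drawn at 0.1. V marks vehicle and R rebamipide libraries. Vegfa is high where the adipocyte and endothelial lists are high, Fgf5 is high in V1 and V2 as is the growing hair follicle list, and Fgf7 in R1 is low while the fibroblast list there is 15750 CPM.

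Fgf18 (ENSMUSG00000057967, chromosome 11, 33067430 to 33097400), a ligand of resting follicles, was at 1.422, 2.965 and 4.063 CPM in vehicle and at 2.503, 1.091 and 1.107 CPM in rebamipide. Its lowest vehicle library, library 1, was one of those with growing follicle transcripts, and it lay below rebamipide library 1. A log2 fold change of -0.84 was fitted, with a 95% interval from -2.21 to 0.53 (adjusted p-value 0.302, edgeR). It ran from -1.35 without rebamipide library 1 to -0.46 without vehicle library 3.

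Tgfb1 (ENSMUSG00000002603, chromosome 7, 25386427 to 25404502), the transforming growth factor linked with follicle regression, was at 27.52, 30.19 and 34.43 CPM in vehicle and at 37.51, 26.97 and 24.73 CPM in rebamipide. The rebamipide libraries lay on both sides of the vehicle range. Tgfb1 had a log2 fold change of -0.05 with a 95% interval from -0.61 to 0.51 (adjusted p-value 0.893, edgeR), the narrowest interval of the 10, and its sign turned without vehicle library 3 (0.06), rebamipide library 2 (0.03) or rebamipide library 3 (0.08).

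Tgfb2 (ENSMUSG00000039239, chromosome 1, 186354989 to 186438186), a dermal papilla factor known for activating follicle stem cells, was at 9.976, 23.92 and 21.38 CPM in vehicle and at 12.64, 6.547 and 1.908 CPM in rebamipide. Rebamipide library 1 was above vehicle library 1, and the lowest value was in rebamipide library 3. The log2 fold change was -1.39 with a 95% interval from -3.09 to 0.31 (adjusted p-value 0.188, edgeR). Without rebamipide library 3 it was -0.93 (adjusted p-value 0.266, edgeR), and without rebamipide library 1 it was -2.12 in edgeR (0.0782) and -2.14 in DESeq2 (0.00577), which then called Tgfb2 lower. In all 6 libraries limma on log2(FPKM + 1), which is scaled by total counts, also called it lower (0.0436).

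Levels can be compared between genes only per length of transcript, here as FPKM scaled by the TMM factors. In vehicle skin Vegfa had the highest mean at 16.9 FPKM, followed by Igf1 at 6.37 and Tgfb1 at 6.09 FPKM, and the ranges of these neighbours overlapped. Pdgfa at 4.06, Fgf7 at 3.77, Tgfb2 at 3.18, Fgf5 at 2.88, Fgf18 at 2.37 and Fgf10 at 2.26 FPKM formed a middle group in which each overlapped the next, and Hgf was last at 0.119 FPKM. All vehicle libraries of Hgf lay below those of its neighbour Fgf10, but Hgf, from 0.0502 to 0.155 FPKM, overlapped the range of Fgf5, from 0.0513 to 4.6 FPKM. In rebamipide skin Vegfa stood apart at 78.0 FPKM from Tgfb1 at 5.9, Igf1 at 4.35 and Pdgfa at 3.17 FPKM. Fgf18 at 1.32, Fgf10 at 1.24, Tgfb2 at 1.21 and Fgf7 at 0.865 FPKM followed, and Fgf5 and Hgf were at 0.0571 and 0.0334 FPKM. Fgf7 thus had rank 5 of the 10 in vehicle skin and rank 8 in rebamipide skin. In rebamipide skin its range, from 0.435 to 1.37 FPKM, overlapped those of Tgfb2, Fgf10 and Fgf18, so that rank is not separate from theirs.

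The receptors and co-receptors of the factors come next. Of 17 listed, 16 were tested, 4 were called higher and 3 lower, and the median log2 fold change was 0.42. Over all genes tested, 14.1% were called higher and 6.51% lower, with a median of -0.17. Both tyrosine kinase receptors of Vegfa on the list rose: Kdr, its main signalling receptor on endothelium, went from 47.7 ± 15.1 to 349.4 ± 93.2 CPM (log2 fold change 2.87, adjusted p-value 0.00979, edgeR), and Flt1, which also binds Vegfb, from 49.9 ± 27 to 207 ± 65.8 CPM (2.05, 0.0316). Nrp1, a co-receptor for Vegfa, rose from 40.8 ± 12.8 to 190.2 ± 88.2 CPM (2.22, 0.0261), while Nrp2, named after its values were seen, overlapped between the groups and was not called (0.78, 0.228). These risen genes are expressed by endothelial cells, whose marker list was higher in every rebamipide library, and the part of endothelial content was not tested. Klb, a co-receptor for the endocrine fibroblast growth factors that fat cells express, rose from 11.7 ± 6.19 to 122.7 ± 47.3 CPM (3.38, 0.0135).

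Of the receptors, 3 fell. Igf1r, the receptor of Igf1, fell from 53.7 ± 6.3 to 22.2 ± 3.57 CPM (log2 fold change -1.27, adjusted p-value 0.0133, edgeR), and Tgfbr1, the type I receptor for Tgfb1 and Tgfb2, from 40.8 ± 2.24 to 19.3 ± 5.29 CPM (-1.08, 0.0352). Fgfr3, a fibroblast growth factor receptor found in epithelium, fell from 58.0 ± 24.9 to 15.8 ± 6.26 CPM (-1.88, 0.0394), and basal keratinocyte markers were also lower in every rebamipide library. Fgfr2, whose epithelial form binds Fgf7 and Fgf10, had means of 93.7 CPM in vehicle and 24.3 CPM in rebamipide and did not pass the test (adjusted p-value 0.0866, edgeR). It was named after its values were seen, as were Met, the receptor of Hgf, at 33.1 and 49.4 CPM (0.336), Pdgfra at 114 and 66.2 CPM (0.192) and Pdgfrb at 55.0 and 108.9 CPM (0.0793). Tgfbr2 and Tgfbr3, abundant in these libraries, had means of 271.4 and 276.4 CPM and of 123.9 and 188.2 CPM and were not called (0.964 and 0.267).

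Of 35 other ligands of the same families and the epidermal growth factor family, 27 were tested, 2 were called higher and 4 lower, and their median log2 fold change was -0.48. The shares over all genes tested were 14.1% higher and 6.51% lower, with a median of -0.17. Vegfb, a relative of Vegfa that binds Flt1, rose from 17.7 ± 7.06 to 101.2 ± 28 CPM (log2 fold change 2.51, adjusted p-value 0.0122, edgeR), and Pdgfb, the endothelial partner of Pdgfa, from 17.9 ± 5.59 to 62.8 ± 11.3 CPM (1.81, 0.0141), whereas Pdgfa itself was not called. Tgfa, an epithelial ligand of the epidermal growth factor receptor, fell from 66.5 ± 34.9 to 7.83 ± 4.71 CPM (-3.08, 0.0295). Fgf22, a close relative of Fgf7 and Fgf10 that is made in the follicle epithelium, fell from 11.4 ± 8.24 to 0.752 ± 0.461 CPM (-3.92, 0.0247). Fgf2 fell from 13.6 ± 4.74 to 4.84 ± 0.684 CPM (-1.49, 0.0332), and Mst1, the relative of Hgf, fell from 2.39 to 0.401 CPM (-2.56, 0.0485). Epgn, an epidermal growth factor family ligand of high level, ran from 6.64 to 79.35 CPM among the vehicle libraries and was not called (0.22).

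Of 24 binding and activating proteins 22 were tested, 1 was called higher and 2 lower, and the list's median log2 fold change was -0.93. Among all genes tested, 14.1% were called higher and 6.51% lower, and the median was -0.17. Ltbp2, a matrix protein of the latent transforming growth factor binding protein family, rose from 7.53 ± 1.31 to 89.5 ± 34.3 CPM (log2 fold change 3.57, adjusted p-value 0.00939, edgeR). Both activators of latent transforming growth factor on the list that were called went down, Thbs1 from 118.6 ± 17.4 to 34.3 ± 18.3 CPM (-1.79, 0.0281) and the integrin chain Itgb8 from 8.99 ± 2.55 to 1.45 ± 0.367 CPM (-2.63, 0.0113). The insulin-like growth factor binding proteins Igfbp5, Igfbp6 and Igfbp7, the most abundant of the list per length, were not called (adjusted p-values 0.624, 0.274 and 0.794, edgeR). Igfbp5 had means of 658.1 ± 207 and 471.5 ± 443 CPM.

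Of 16 feedback and target genes of these pathways, all were tested, 1 was called higher and 1 lower, and their median log2 fold change was -0.42. Spry4, a feedback inhibitor of receptor tyrosine kinase signalling, rose from 12.1 ± 2.35 to 33.1 ± 11.1 CPM (1.46, adjusted p-value 0.0306, edgeR), and Spred1, an inhibitor of the same pathway, fell from 86.9 ± 11 to 31.5 ± 4.3 CPM (-1.46, 0.00993). Dusp6, which dephosphorylates the kinase ERK, had means of 74.3 and 85.1 CPM, Ski, a repressor of transforming growth factor signalling, of 132.8 and 141.9 CPM, and Tgfbi, a matrix protein induced by transforming growth factor, of 222 and 90.9 CPM, and none of these 3 was called (0.726, 0.716 and 0.239). Over all 4 lists, 8 of 81 tested genes were called higher and 10 lower, where 14.1% and 6.51% of all genes tested were called. The counts were 5 and 4 without rebamipide library 3. Each of the 18 calls was lost in edgeR without vehicle library 2 and without rebamipide library 2, and Mst1 and Spry4 lost theirs in 10 and 9 of the alternatives, more often than the others.

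**Figure D5:**
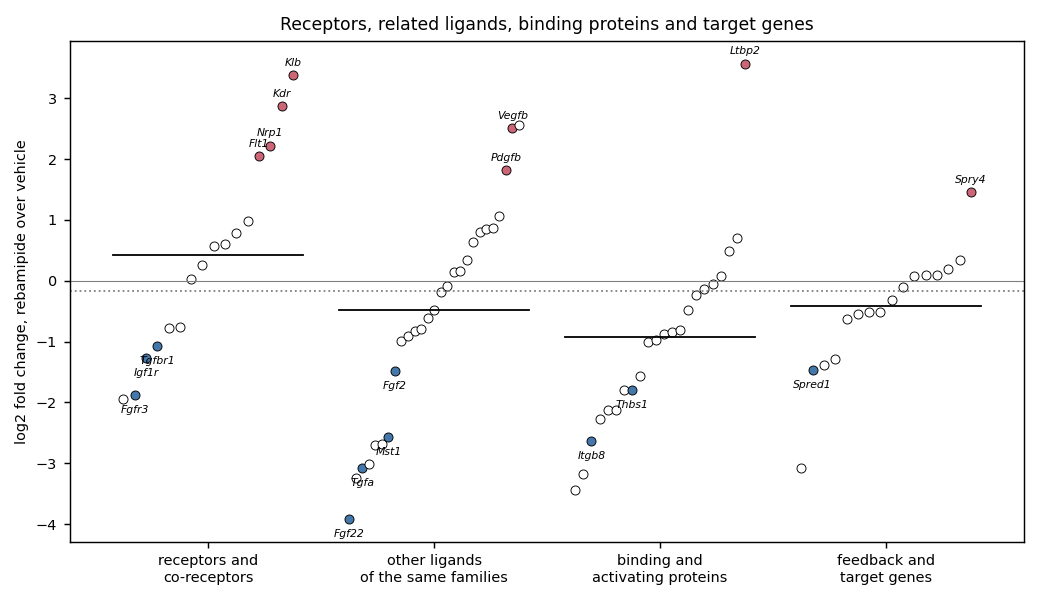
Log2 fold change, rebamipide over vehicle, of the tested genes of the 4 pathway lists, each point 1 gene in order of its value. Red and blue points were called higher and lower (edgeR, adjusted p-value under 0.05) and are named, open points were not called, black lines are list medians and the dotted line is the median of all genes tested, -0.17. The receptor list has a median of 0.42 with Klb, Kdr, Nrp1 and Flt1 at the top, and the binding proteins have a median of -0.93.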

How the data were processed

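Poly-A RNA of 3 vehicle and 3 rebamipide skins was sequenced (1 mouse per library, groups from the labels). The submitters' processing notes name fastp 0.22.0, HISAT2 2.1.0, HTSeq 0.9.1 and GRCm39. Per gene, the authors deposited unnormalized counts and FPKM, the FPKM being the counts divided by gene length and by the library's summed counts. Reads on overlapping genes are not split by strand as far as the sources state. The groups' counts were tested with edgeR 4.0.16 under R 4.3.3 (TMM, filterByExpr, quasi-likelihood test, Benjamini-Hochberg adjustment over 14875 genes), and levels are TMM-normalized CPM. DESeq2 1.42.0, limma 3.58.1 (voom, or log2(FPKM + 1) and log2(FPKM + 0.1)), other scalings and filters, a replicate block and each library left out were alternatives. On simulated counts for this comparison, edgeR recovered 96% of 200 genes changed 4-fold, with 5 false calls among 15002 genes. Whether the spread between replicates in these counts matches that of the real libraries was not tested. The 96% is therefore not given as the power reached in the real libraries. Replicates of a group differed beyond counting error, with a chi-square of 79.1 to 713.6 per degree of freedom.

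The factors and the lists of receptors, ligands, binding proteins, targets and 16 cell types were chosen with earlier results of these data known. Named were all factors and, of each pathway list, up to 5 genes called in each direction and the 3 highest by FPKM. Promoter letters come from RefSeq (GRCm38.p6), and positions of the table are not mixed with it. Protein sequences were not analysed here.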

Additional observations from a re-analysis of the deposited data

How the results depend on the processing

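With 3 libraries per group, calls near the threshold depended on single libraries. edgeR called 1 of all 14875 genes higher and 0 lower without rebamipide library 2 (4062 at an unadjusted p-value under 0.05) and 0 in both directions without vehicle library 2 (4116 at an unadjusted p-value under 0.05), so calls lost there are not particular to a factor. Factors called higher numbered 0 with upper quartile scaling, total counts alone, no filter, or vehicle libraries 1 and 2 left out, the last chosen after seeing the data (adjusted p-values of Vegfa 0.0551, 0.0643, 0.0536 and 0.389), and with 1 library left out 0 to 1 by edgeR and 1 by DESeq2. Factors called lower numbered 3 and 2 with limma on log2(FPKM + 1) and log2(FPKM + 0.1), 3 with total counts alone, 0 with vehicle libraries 1 and 2 left out, and with 1 library left out 0 to 1 by edgeR and 1 to 3 by DESeq2. Factors past the study's thresholds numbered 6, 5 and 1 with log2(FPKM + 0.1), total counts alone and those vehicle libraries left out, and with 1 library left out 2 to 4 by edgeR and 3 to 5 by DESeq2. Pathway genes called higher numbered 0 with those vehicle libraries left out and with 1 library left out 0 to 10 by edgeR and 9 to 13 by DESeq2. Pathway genes called lower numbered 16 with DESeq2, 26 and 23 with log2(FPKM + 1) and log2(FPKM + 0.1), 17 with total counts alone, 0 with those vehicle libraries left out and with 1 library left out 0 to 17 by edgeR and 10 to 31 by DESeq2. Calls lower became more frequent over all genes too. They numbered 968 of all 14875 genes in the main test and 4809 and 4777 with log2(FPKM + 1) and log2(FPKM + 0.1). With 1 library left out DESeq2 called 1489 to 4225 of all genes lower. The log2 fold change of Tgfb1 ran from -0.24 to 0.10 with 1 library left out by either tool. That of Fgf5 was 0.18 with those vehicle libraries left out, which hold nearly all its vehicle counts. Both settings on FPKM share the scaling by total counts, and the causes of the other shifts were not tested. Vegfa was above 0 (1.40 to 2.84) and Fgf7 below 0 (-2.68 to -1.74) in all 24 alternatives, with calls lost in 8 and 5. Samples with the same replicate number did not deviate together (r = -0.02, -0.04 and 0.00), and with the number as a replicate block edgeR called 1 factor higher and 1 lower (adjusted p-values of Vegfa 0.0187 and of Fgf7 0.0498), and 1432 genes higher and 855 lower. The largest of the same-number correlations was not over 0.1. Over all genes DESeq2 called 2649 higher and 2535 lower, and total counts alone 1258 and 3752.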

Other observations

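The 6 markers of the dermal papilla, described here after their values were seen, did not all move one way. Alpl had 435, 260 and 334 counts in vehicle libraries 1, 2 and 3 and 563, 677 and 757 counts in the rebamipide libraries, and it was the 1 marker of the list called higher (log2 fold change 1.80, adjusted p-value 0.0146, edgeR). Corin had 978, 419 and 34 counts in vehicle and 209, 6 and 1 counts in rebamipide, and Rspo3 had 288, 116 and 60 counts in vehicle and 19, 8 and 2 counts in rebamipide. Crabp1, Hhip and Notum were each at 0 in 1 rebamipide library. None of these 5 was called.

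On the scale relative to the fibroblast markers, where the marker mean was lower by 1.51 in rebamipide and every gene is raised by that amount, the differences of the other factors, rebamipide minus vehicle on the log2 scale, were 3.75 for Vegfa, 1.45 for Tgfb1, 1.15 for Pdgfa, 1.01 for Igf1, 0.72 for Fgf10, 0.68 for Fgf18, -0.16 for Tgfb2, -1.16 for Hgf and -4.39 for Fgf5. They are given as values without a test. Fgf5 was at 0 counts in rebamipide libraries 2 and 3 and Hgf in library 3. Their log2 values there are set by a small offset added to the counts, so these 2 differences are not exact.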
